A study of Mus musculus with 30 samples.

Results

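Imprinting centres that drive an antisense RNA were followed in mouse sperm through 7 genes: Airn and Igf2r on chromosome 17, Kcnq1ot1, Kcnq1 and Cdkn1c on chromosome 7, Gnas on chromosome 2 and Snrpn on chromosome 7. Their members were the CpGs inside the RefSeq bodies of these genes on GRCm38 and the 5000 bp on either side, with the reads of both strands summed and 10 or more reads in every mouse. This gave 255 CpGs of 416876 measured in all 30 mice. Within these genes the CpGs were taken by position and read depth, not by methylation or treatment. The genes themselves were chosen with earlier results of these data known. Airn and Igf2r overlap and held the same 26 CpGs, Kcnq1 held 25 (the 3 CpGs of Kcnq1ot1 among them), Cdkn1c 47, Gnas 143 and Snrpn 14.

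DNA methylation was read by reduced representation bisulfite sequencing, which sequences CpG-rich restriction fragments and scores a cytosine as methylated when bisulfite leaves it unconverted. The DNA came from sperm of both cauda epididymides of C57BL/6 males, each mouse a library of its own. In the cadmium group, 15 mice were given cadmium, as its chloride, at 0.9 ppm in reverse-osmosis drinking water, at an average dose of 0.68 mg per kg of body weight. In the vehicle group, 15 mice drank the same water without cadmium. Both groups were 7 weeks old initially, ate the same diet with 10% of energy from fat, and were treated for 9 weeks. Sperm were washed and pelleted, and the labels name no lysis or sorting step against other cells.

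At an imprinted locus the alleles from mother and father carry different methylation, set in the germ line at an imprinting control region. The maternally methylated control regions at these loci overlap the starts of non-coding RNAs that run antisense to a neighbouring gene: Airn across the Igf2r promoter, Kcnq1ot1 inside Kcnq1, and Gnasas1 (also called Nespas) across the Nesp promoter of Gnas. These regions are methylated in oocytes and unmethylated in sperm, so the antisense RNA is made from the paternal allele, where it silences its targets. Igf2r encodes a receptor that clears insulin-like growth factor 2, Cdkn1c a cyclin-dependent kinase inhibitor, Kcnq1 a potassium channel subunit, and Gnas the stimulatory G protein alpha subunit together with the Nesp55 secretory protein and other products. Snrpn encodes a splicing protein and shares its control region with the upstream reading frame Snurf. The promoters of Igf2r, Cdkn1c and Nesp gain methylation on the silenced allele after fertilisation, whereas the Gs alpha promoter stays unmethylated on both alleles in most tissues.

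The promoters of Igf2r and of Gs alpha are shown because both are dense in CpGs, both were measured in every mouse, and they differed in level. Each runs from 250 bases before to 50 bases after the RefSeq start on GRCm38.p6, and capitals mark the CpGs measured in all 30 mice. The Igf2r promoter (chr17:12769657-12769956, minus strand) holds 34 CpGs, of which 13 were measured. The Gs alpha promoter of Gnas (chr2:174329756-174330055, plus strand) holds 40 CpGs, of which 5 were measured.
Igf2r: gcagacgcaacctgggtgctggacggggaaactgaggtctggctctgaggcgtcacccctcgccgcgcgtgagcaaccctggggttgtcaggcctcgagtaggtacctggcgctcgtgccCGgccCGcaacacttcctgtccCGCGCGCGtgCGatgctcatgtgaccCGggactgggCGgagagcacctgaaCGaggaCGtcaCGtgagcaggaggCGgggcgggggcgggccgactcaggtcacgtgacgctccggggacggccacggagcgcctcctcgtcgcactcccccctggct
Gs alpha: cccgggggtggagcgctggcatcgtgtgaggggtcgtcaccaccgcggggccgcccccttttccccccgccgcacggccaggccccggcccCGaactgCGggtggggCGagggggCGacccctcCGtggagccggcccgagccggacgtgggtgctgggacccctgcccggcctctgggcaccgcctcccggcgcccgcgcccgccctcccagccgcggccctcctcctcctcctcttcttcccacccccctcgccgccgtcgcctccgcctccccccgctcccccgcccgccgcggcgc

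The 13 CpGs of the Igf2r promoter sequence averaged 12.5% ± 7.59 methylated in cadmium mice and 12.4% ± 9.90 in vehicle mice (SD, n = 15 each). Single CpGs of this sequence averaged 3.97% to 20.1% over the 30 mice. The 5 CpGs of the Gs alpha sequence averaged 0.261% ± 1.01 in cadmium mice and 0.252% ± 0.974 in vehicle mice. RefSeq promoters were at hand for 6 of the 9 symbols looked up (the 7 genes, Gnasas1 and Snurf), in 11 distinct windows. The Airn window holds 3 CpGs and the Kcnq1ot1 window 9, none of them measured in every mouse, and the same held for the Nesp, exon 1A and Snurf windows. The letters TGCCGC, the core of the motif bound by ZFP57, a zinc finger protein that keeps imprints after fertilisation, were searched on both strands. They stood in 1 of the 11 windows, at the shared Snurf and Snrpn start, against 11.7% of 32412 RefSeq promoters of the same length.

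Summed over all cytosines, a library had 57856937 to 79777446 reads of coverage in cadmium mice and 53591172 to 94090975 in vehicle mice, and a member CpG had a median of 70 reads, as did the CpGs of the whole genome. Neighbouring CpGs are read by the same fragments, and PCR duplicates cannot be told from separate molecules. Hence intervals from counts would cover counting error only, and the errors below are spreads between mice. The H19 control region, which sperm carry methylated, read 87.1% ± 9.32 methylated in cadmium mice and 88.6% ± 12.8 in vehicle mice over 2 CpGs. The gene ends of 3 germ cell genes, Dazl, Ddx4 and Mael, averaged 19.04%, 27.9% and 40.8% in cadmium mice and 14.8%, 24.7% and 27.4% in vehicle mice. The gene ends of Rasgrf1, Meg3 and Dlk1, which lie outside their paternally methylated control regions, averaged 1.29%, 28.9% and 0.273% in cadmium mice and 1.30%, 28.2% and 0.507% in vehicle mice. A comparison list of 11 other genes with maternally methylated control regions, 10 of them measured, averaged 16.4% ± 6.09 in cadmium mice and 14.6% ± 8.35 in vehicle mice, and ran from 5.69% to 34.7% over the mice. No mouse was at 0 for this list. It was read at gene ends, which need not lie in the control regions. Its gene means ran from 0.907% (Grb10) to 28.4% (Mest).

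Most member CpGs sat at a low intermediate level that few other CpGs of these libraries had. Of the 255, 138 (54.1%) averaged 10 to 40% over the mice, against 6.78% of all 416876 CpGs. A further 52 averaged under 1%, of which 47 lay in Gnas and 5 in Kcnq1. Another 26 averaged 80% or more, 17 of them in Kcnq1. Of all 416876 CpGs, 188704 (45.3%) averaged under 1% and 91610 averaged 80% or more. The median member CpG averaged 14.6%, and the median of all 416876 CpGs was 1.39%. Of 28 clusters, runs of 3 or more member CpGs no more than 100 bp apart, 20 averaged 10 to 40%, 5 under 1% and 2 over 80%. Of all 44897 clusters, 4057 averaged 10 to 40%, 19266 under 1% and 10439 over 80%.

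For each start, reads were summed over the CpGs of a stretch within 1000 bp of the gene end or RefSeq start. At the Airn, Kcnq1ot1 and Gnasas1 starts that width held fewer than 3 CpGs, so 2000 bp were taken there. A level is the share of methylated reads in the stretch. Groups were compared by a logistic model of the reads with a dispersion estimated from the mice, and p was adjusted by the Benjamini-Hochberg method over all stretches of the same kind in the genome.

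The Airn start was measured at 6 CpGs, 1065 to 1109 bp inside the transcript (chr17:12742376-12742421). Cadmium mice ran from 0% to 49.9% with a median of 18.7%, and vehicle mice from 0% to 42.8% with a median of 12.8%. The groups overlapped over nearly their whole range, and 6 mice were under 1% while 9 were over 25%. Their means were 17.5% ± 17.2 in cadmium and 16.6% ± 12.3 in vehicle mice, a difference of 0.93 points (95% interval −10.3 to 12.2, adjusted p = 0.999).

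The Kcnq1ot1 start was measured at 2 CpGs, 1142 and 1137 bp inside the transcript (chr7:143295405-143295411), which was too few for a stretch test. Summed over both, cadmium mice ran from 0% to 50% with a median of 10.8%, and vehicle mice from 0% to 59.7% with a median of 10.2%. The groups overlapped, and 8 of the 30 mice were over 25%. The first CpG averaged 18.3% ± 16.2 in cadmium mice, against 16.1% ± 19.7 in vehicle mice (adjusted p = 1), and the second 17.6% ± 16.1 in cadmium and 17.4% ± 19.6 in vehicle mice (adjusted p = 0.993). With CpGs read in at least 10 mice of each group admitted, 17 CpGs averaged 13.3% ± 13.7 in cadmium mice and 11.97% ± 12.6 in vehicle mice.

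The Gnasas1 start was measured at 6 CpGs, 837 to 1958 bp beyond the gene end, on the side away from Nesp (chr2:174296273-174297395). Cadmium mice ran from 0.281% to 60.5% with a median of 23.9%, and vehicle mice from 0% to 43.0% with a median of 11.3%. A single cadmium mouse stood above every vehicle mouse, and the rest of the groups overlapped. Their means were 22.2% ± 14.2 in cadmium and 15.4% ± 15.97 in vehicle mice, a difference of 6.80 points (95% interval −4.52 to 18.1, adjusted p = 0.999). It was the largest difference between the groups among the 10 stretches, and it stayed inside the spread between mice.

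The other control regions of Snrpn and Gnas stood within the spread of the antisense starts. At the Snurf start, the region shared with Snrpn, 7 CpGs ran from 0% to 31.9% in cadmium mice (median 17.1%) and from 3.59% to 39.1% in vehicle mice (median 14.0%). The means were 17.1% ± 10.9 in cadmium and 15.7% ± 9.93 in vehicle mice, a difference of 1.36 points (−6.45 to 9.17, adjusted p = 0.998). At exon 1A of Gnas, whose control region governs imprinting of Gs alpha (RefSeq lists starts without product names, and 1A and Gs alpha were assigned by their order in the gene), 21 CpGs ran from 5.84% to 36.4% in cadmium mice (median 18.6%) and from 0.907% to 45.6% in vehicle mice (median 10.4%). The means were 18.7% ± 8.52 in cadmium and 17.3% ± 14.5 in vehicle mice, a difference of 1.47 points (−7.54 to 10.5, adjusted p = 0.995).

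Among the promoters that the antisense RNAs silence, the stretches taken for Igf2r, Cdkn1c and Nesp also stood at group means between 12.2% and 16.5%. The Igf2r stretch of 17 CpGs ran from 3.32% to 26.2% in cadmium mice (median 13.4%) and from 0% to 31.0% in vehicle mice (median 12.3%). Its means were 12.98% ± 6.51 in cadmium and 12.7% ± 10.0 in vehicle mice, a difference of 0.28 points (−6.08 to 6.65, adjusted p = 0.999), with a sign that turned under 5 alternative settings given below. The 10 CpGs of the Cdkn1c stretch lay 874 to 940 bp inside the gene, and none nearer its start was measured in every mouse. The stretch ran from 0% to 36.4% in cadmium mice (median 12.5%) and from 0% to 36.1% in vehicle mice (median 16.5%). Its means were 16.3% ± 12.04 in cadmium and 16.5% ± 11.8 in vehicle mice (difference −0.24, −9.15 to 8.66, adjusted p = 0.999), again with a sign that turned with the setting. The Nesp stretch of 6 CpGs ran from 0% to 28.5% in cadmium mice (median 13.4%) and from 0% to 38.9% in vehicle mice (median 8.80%), with means of 12.2% ± 9.52 in cadmium and 14.0% ± 14.5 in vehicle mice (difference −1.74, −11.0 to 7.48, adjusted p = 0.999). The groups overlapped in all 3 stretches, with 3 vehicle mice above every cadmium mouse at Igf2r and 4 at Nesp.

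The 3 mice with the highest mitochondrial share of coverage were all vehicle mice (12, 13 and 14), and the differences moved when they were left out. These levels rose with the share, as given below. Leaving out vehicle mice of high share alone therefore lowers the vehicle means and moves these differences up by construction. Over all 15 mice of each group the mean share was 0.0586% in cadmium and 0.0584% in vehicle mice. Without them the cadmium minus vehicle difference was 4.75 points at Airn, 8.54 at Kcnq1ot1, 12.7 at Gnasas1, 4.14 at Snurf, 6.19 at exon 1A, 2.97 at Igf2r, 3.43 at Cdkn1c and 2.98 at Nesp. None of those tested passed. With all 30 mice and the share as a covariate in limma, the differences were 0.87 points at Airn (adjusted p = 0.994), 6.73 at Gnasas1 (adjusted p = 0.952) and 1.41 at exon 1A (adjusted p = 0.984).

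The promoters of Kcnq1 and Gs alpha stood apart, at under 1% in 28 of 30 mice each. The Kcnq1 stretch of 5 CpGs ran from 0% to 0.943% in cadmium mice and from 0% to 4.82% in vehicle mice, with a median of 0% in both. Its means were 0.110% ± 0.266 in cadmium and 0.575% ± 1.43 in vehicle mice, a difference of −0.47 points (−1.26 to 0.33, adjusted p = 0.880). The Gs alpha stretch of 58 CpGs, with a median of 3953.5 reads per mouse, ran from 0% to 2.14% in cadmium mice (median 0.449%) and from 0.114% to 0.914% in vehicle mice (median 0.402%). Its means were 0.579% ± 0.518 in cadmium and 0.437% ± 0.230 in vehicle mice, a difference of 0.14 points (−0.16 to 0.45, adjusted p = 0.962).

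**Figure D1:**
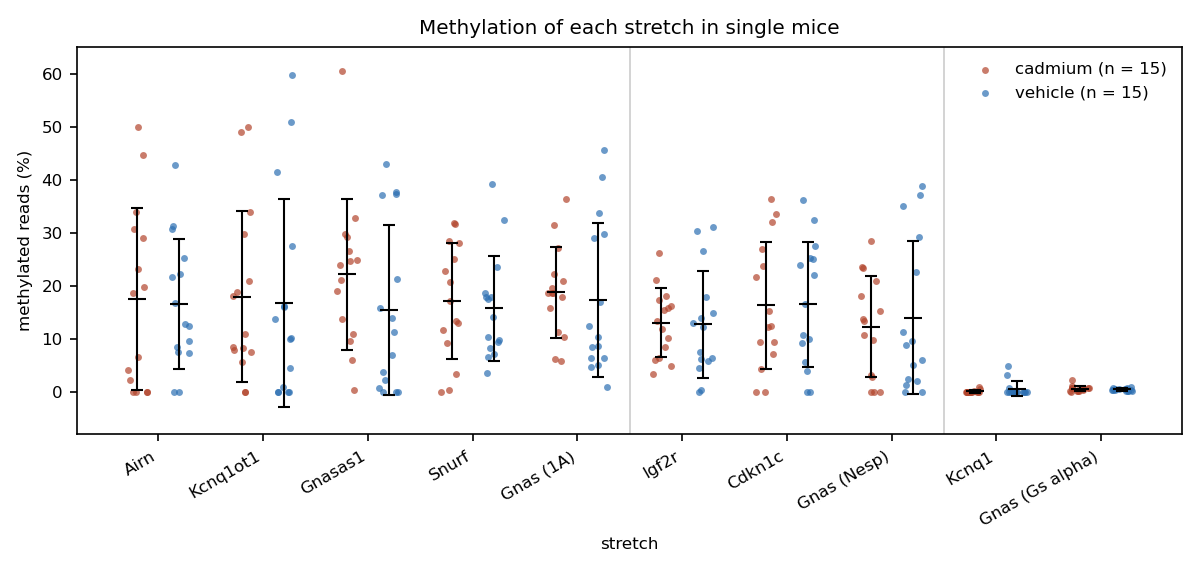
Percentage of methylated reads in each of the 10 stretches (vertical axis), with a point per mouse (cadmium left, vehicle right, 15 each) and bars for the mean ± SD. Antisense, Snurf and 1A starts are in the left block and the stretches taken for the Igf2r, Cdkn1c and Nesp promoters in the middle. The Cdkn1c stretch lies 874 to 940 bp inside the gene. The Kcnq1 and Gs alpha promoters are on the right, where 28 of 30 mice lie under 1% at each, while mice elsewhere spread between 0% and 60.5%.

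No stretch, cluster or CpG of these genes passed the test between cadmium and vehicle mice. None of the 9 stretches tested had an unadjusted p under 0.05, and the genome-wide background was 0% of 15766 gene ends at 1000 bp (933 with an unadjusted p under 0.05), 0% of 19434 at 2000 bp (1092) and 0% of 13468 RefSeq starts (781). Of the 28 member clusters 0 passed, against 0% of 44897 clusters (2698 with an unadjusted p under 0.05). Among the members, 0 clusters had an unadjusted p under 0.05. Of the 255 member CpGs 0 passed, against 0.00168% of 416876 (7 CpGs). An unadjusted p under 0.05 was found for 9 member CpGs (3.53%), against 10.3% of all CpGs. By limma on percent methylation 0 member CpGs and 0 member clusters passed, against 0% of all CpGs and 0% of all clusters. An unadjusted p under 0.05 by limma was found for 3 member CpGs and 0 member clusters, against 1.74% of all CpGs and 3.43% of all clusters. By their means, 131 member CpGs were higher in cadmium mice, 106 lower and 18 equal, with a median difference of 0.16 points. Of all 416876 CpGs, 176875 were higher, 177029 lower and 62972 equal, with a median of 0. Of the member clusters 18 were higher and 10 lower (median 0.52 points), with differences between −5.72 and 11.8 points. Of all 44897 clusters, 22620 were higher and 22227 lower (median 0.005 points). Whether the members lean further to one direction than this background was not tested, and neighbouring CpGs are not independent.

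The 3 member CpGs with the smallest p were not at the control regions. A CpG in the body of Kcnq1 (chr7:143186554-143186555) averaged 88.4% ± 16.5 in cadmium mice and was fully methylated in every vehicle mouse (adjusted p = 0.165), at a median of 23 reads. At Gs alpha, 1 CpG (chr2:174330230-174330231) was at 0% in every cadmium mouse and at 1.98% ± 3.85 in vehicle mice (adjusted p = 0.271), while another (chr2:174330554-174330555) averaged 0.733% ± 1.78 in cadmium mice, against 0% in vehicle mice (adjusted p = 0.288). The cluster with the smallest p, 28 CpGs at Gs alpha (chr2:174330407-174330605), averaged 0.672% ± 0.844 in cadmium mice and 0.278% ± 0.270 in vehicle mice, at an unadjusted p of 0.0502 (adjusted p = 0.834). The 3 clusters with the smallest p were completed by the Kcnq1 promoter cluster, whose 5 CpGs are those of the stretch above (p = 0.0930), and by 3 CpGs 1207 bp from the Gnasas1 start (chr2:174296643-174296682), with 24.7% ± 19.7 in cadmium mice against 14.9% ± 16.9 in vehicle mice (p = 0.141).

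Along Gnas the level changed in steps that both groups shared. The cluster nearest the Nesp start (chr2:174284704-174284739) averaged 11.8% ± 9.72 in cadmium mice and 13.3% ± 15.5 in vehicle mice. Between Nesp and the Gnasas1 start, 3 CpGs (chr2:174291369-174291419) averaged 88.8% ± 11.3 in cadmium mice and 87.9% ± 10.8 in vehicle mice, the highest cluster of the gene. From 1207 to 5131 bp beyond the Gnasas1 start, 8 clusters averaged 11.9% to 28.1% over the mice. The highest of these, 4 CpGs at chr2:174297999-174298020, averaged 34.02% ± 22.1 in cadmium mice, against 22.3% ± 20.8 in vehicle mice (adjusted p = 0.991).

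A sharp step lay between exon 1A and Gs alpha. Around the 1A start, 6 CpGs (chr2:174327949-174328003) averaged 17.6% ± 18.5 in cadmium mice and 16.3% ± 15.8 in vehicle mice, and 11 CpGs (chr2:174328354-174328536) averaged 16.9% ± 8.39 in cadmium against 14.4% ± 11.99 in vehicle mice. The last cluster of the 1A region (chr2:174328738-174328782) averaged 25.3% ± 13.7 in cadmium mice and 31.1% ± 28.7 in vehicle mice, and single mice ran from 0% to 76.4%. The next cluster, 861 bp on (chr2:174329643-174329693), averaged 0.654% ± 1.15 in cadmium mice and 0.781% ± 1.119 in vehicle mice, and no mouse was over 3.85%. The 4 clusters on the Gs alpha side held 58 CpGs. Of these, 20 CpGs (chr2:174330078-174330276) averaged 0.485% ± 0.526 in cadmium mice and 0.620% ± 0.388 in vehicle mice, and the lowest cluster, within the promoter printed above, averaged 0.261% ± 1.01 in cadmium mice and 0.252% ± 0.974 in vehicle mice.

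**Figure D2:**
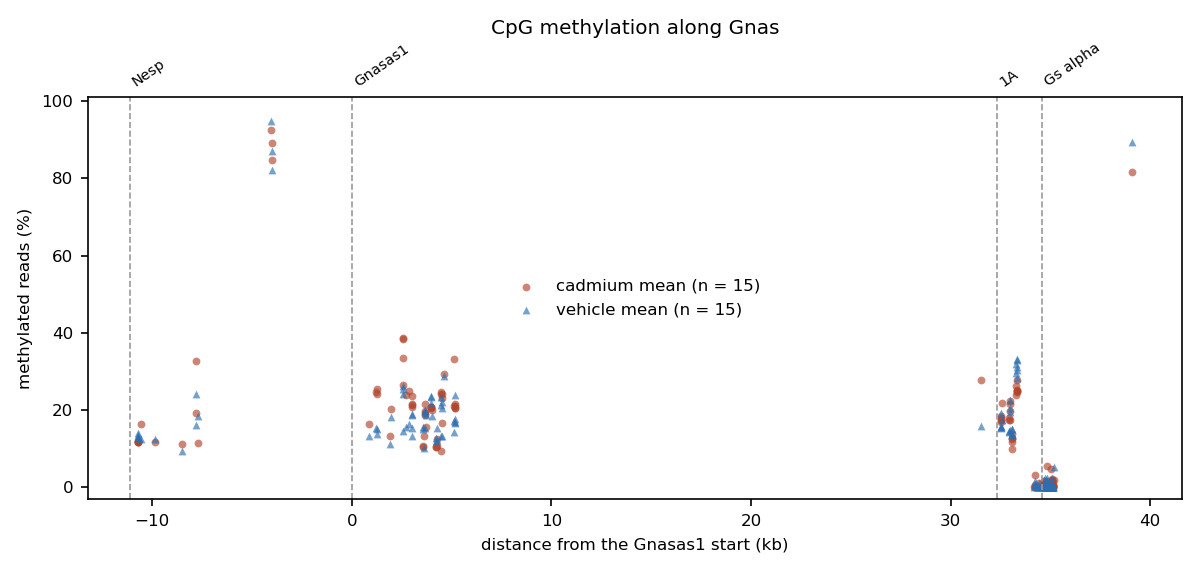
Mean methylation of each measured CpG (percentage of methylated reads, vertical axis) in cadmium mice (circles) and vehicle mice (triangles, 15 each) against distance from the Gnasas1 start in kb, with dashed lines at the starts. CpGs at Nesp, beyond the Gnasas1 start and at 1A lie mostly between 10% and 40%, a cluster before the Gnasas1 start averages 88.8% in cadmium mice and 87.9% in vehicle mice, and the 58 CpGs around the Gs alpha start lie near 0%.

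On chromosome 17, the 26 CpGs of Airn and Igf2r formed 3 clusters. The Airn cluster is the stretch described above, and the highest of the 3. The lowest was the run of 13 CpGs just upstream of the Igf2r start (chr17:12769738-12769836), with 12.5% ± 7.59 in cadmium mice against 12.4% ± 9.90 in vehicle mice. It was separated by 487 bp from 4 CpGs inside the gene (chr17:12769212-12769251) at 12.6% ± 9.26 in cadmium and 14.7% ± 15.02 in vehicle mice. Over the 26 CpGs, 19 averaged 10 to 40%, 6 from 1 to 10% and 1 reached 88.4%.

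On chromosome 7 the intermediate level was seen at Cdkn1c and at the Kcnq1ot1 start. The Kcnq1 promoter cluster (chr7:143107083-143107129) was the lowest of Kcnq1, and a cluster 32070 bp from the Kcnq1ot1 start towards Cdkn1c (chr7:143328617-143328663) was the highest, with 94.1% ± 5.05 in cadmium mice, against 94.6% ± 4.53 in vehicle mice. At Cdkn1c, 30 CpGs (chr7:143459675-143460186) averaged 15.9% ± 8.41 in cadmium mice and 13.5% ± 9.89 in vehicle mice, its highest cluster. The lowest cluster of Cdkn1c, 9 CpGs only 339 bp away (chr7:143459286-143459336), averaged 4.14% ± 5.63 in cadmium mice and 4.15% ± 4.99 in vehicle mice. At Snrpn, the clusters were 3 CpGs (chr7:60004580-60004651) with 15.9% ± 12.2 in cadmium mice against 15.6% ± 12.1 in vehicle mice and 3 CpGs 401 bp on (chr7:60005052-60005093) with 16.9% ± 19.9 in cadmium against 14.7% ± 25.5 in vehicle mice, with mice from 0% to 100%.

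**Figure D3:**
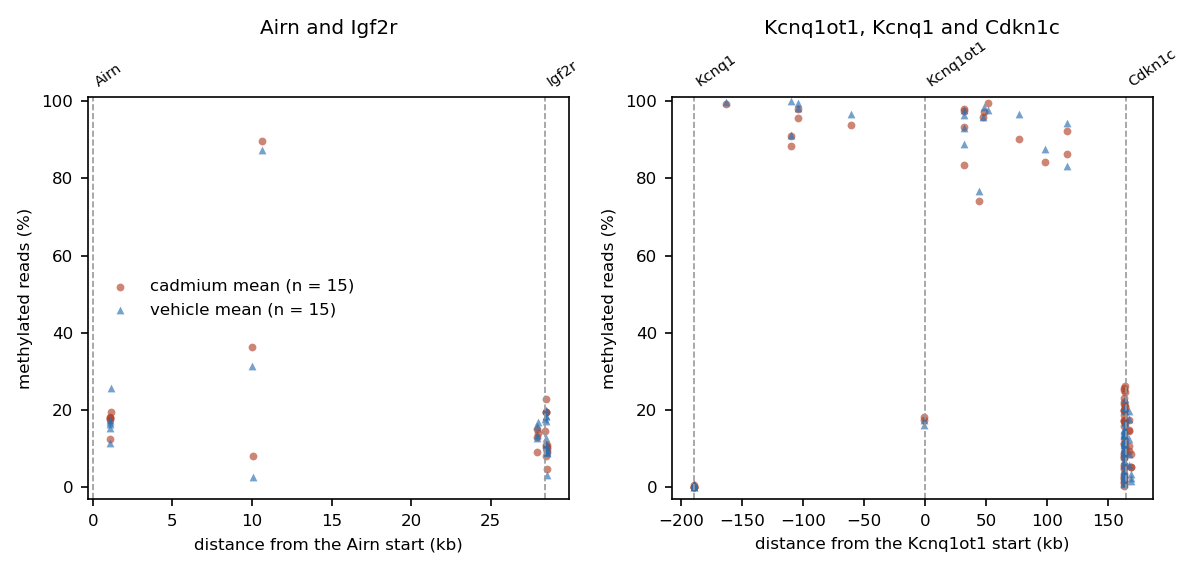
Mean methylation of each measured CpG (percentage of methylated reads, vertical axis) in cadmium mice (circles) and vehicle mice (triangles, 15 each) against distance in kb from the Airn start (left) and the Kcnq1ot1 start (right), with dashed lines at the starts. CpGs near the Airn, Igf2r and Kcnq1ot1 starts and inside Cdkn1c lie mostly at intermediate levels. The 5 CpGs of the Kcnq1 promoter lie near 0%, and most CpGs of the Kcnq1 body over 80%.

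Next, the start of each antisense RNA was set against the stretch taken for the promoter it silences in the same mouse. At Cdkn1c this stretch lies 874 to 940 bp inside the gene. The permutation test used flips the sign of each mouse's difference (two-sided, 100000 resamples). The p was adjusted over 5 contrasts, 1 of them, exon 1A against Gs alpha, added after the data were seen. Stretches of 2000 bp and 1000 bp meet in the 4 antisense contrasts, and the CpGs are those that happened to be covered. The smallest p this test can give is 1e-05.

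Kcnq1ot1 stood above the Kcnq1 promoter. The start averaged 17.3% ± 17.6 and the promoter 0.343% ± 1.04 over the 30 mice, a difference of 16.99 points (95% interval 10.4 to 23.6, adjusted p = 2.5e-05), with Kcnq1ot1 higher in 24 mice and lower in 1. Exon 1A stood above Gs alpha in the same way, at 17.99% ± 11.7 and 0.508% ± 0.400, a difference of 17.5 points (13.1 to 21.9, adjusted p = 2.5e-05), with 1A higher in 29 of 30 mice.

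Gnasas1 stood above Nesp by less. The start averaged 18.8% ± 15.3 and the Nesp promoter 13.1% ± 12.1, a difference of 5.70 points (0.92 to 10.5, adjusted p = 0.0252), with Gnasas1 higher in 19 mice and lower in 9. With CpGs weighted equally instead of by reads the difference was 4.76 points (adjusted p = 0.0548), which did not pass. It was 9.97 points in cadmium mice (1.55 to 18.4, higher in 12 of 15) and 1.43 points in vehicle mice (−3.16 to 6.01, higher in 7 of 15). The difference of these differences was 8.54 points (−0.74 to 17.8, permutation p = 0.0589, adjusted p = 0.295), so the groups were not shown to differ.

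Airn did not pass against Igf2r, nor Kcnq1ot1 against Cdkn1c. Airn averaged 17.04% ± 14.7 and the Igf2r promoter 12.8% ± 8.30, a difference of 4.20 points (−0.61 to 9.02, adjusted p = 0.107), with Airn higher in 20 mice. Kcnq1ot1 averaged 17.3% ± 17.6 and Cdkn1c 16.4% ± 11.7, a difference of 0.94 points (−5.66 to 7.55, adjusted p = 0.772), with each higher in 14 mice. For these contrasts and for Kcnq1ot1 with Kcnq1 and 1A with Gs alpha, the cadmium minus vehicle difference was 0.65 to 1.68 points (adjusted p = 0.893 each).

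In order of mean level over the 30 mice the stretches ran Gnasas1 (18.8%), 1A (17.99%), Kcnq1ot1 (17.3%), Airn (17.04%), Snurf (16.4%), Cdkn1c (16.4%), Nesp (13.1%), Igf2r (12.8%), Gs alpha (0.508%) and Kcnq1 (0.343%). Neighbours in this order differed by less than the SD of their difference over the mice, except Igf2r over Gs alpha (12.3 points, SD 8.25, higher in 29 of 30 mice).

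**Figure D4:**
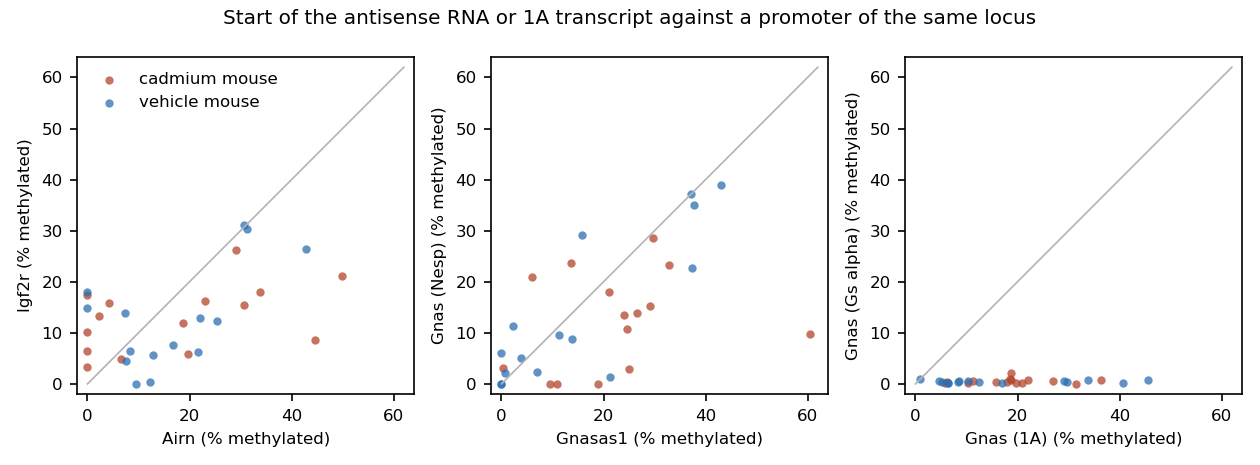
Each mouse's percentage of methylated reads at the Airn, Gnasas1 or 1A start (horizontal axis) against that at the Igf2r, Nesp or Gs alpha promoter of the same locus (vertical axis), with the line of equal levels. Igf2r and Nesp extend up to 31.0% and 38.9% with many mice under the line, whereas Gs alpha reaches at most 2.14% in any mouse while 1A reaches 45.6%.

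Levels at the 8 stretches other than Kcnq1 and Gs alpha went up and down together across mice. These 8 are called intermediate below. The split was made by level, since the Kcnq1 promoter is also a target of an antisense RNA. Between mice the reads of the 8 intermediate stretches varied 36.8 to 241 times as much as counting alone would give. At the Kcnq1 and Gs alpha promoters it was 4.67 and 11.3 times. This ratio grows with the reads summed, from a median of 173 at Kcnq1ot1 to 2328 at exon 1A among the 8. It also counts a fragment once for each CpG, so the stretches cannot be ranked by it. Relations among stretches, the mitochondrial share of coverage and the comparison list, 65 in all, were tested by permutation (100000 resamples) and adjusted together. All 28 pairs of intermediate stretches had a positive Pearson r, from 0.327 to 0.801, and 27 passed. Within cadmium mice the median r of the 28 pairs was 0.394 (−0.322 to 0.708), and within vehicle mice 0.790 (0.582 to 0.923). Whether the groups differ in it was not tested. Of 16 pairs of an intermediate stretch with Kcnq1 or Gs alpha, with r from −0.129 to 0.421, 1 passed. Both promoters were almost unmethylated and had little spread to follow. These pairs therefore cannot show that the shared movement is particular to the intermediate stretches.

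The median r of the 28 pairs was 0.592, and the pairs of an antisense start with the stretch taken for its silenced promoter lay below it. Airn and Igf2r had r = 0.485 (adjusted p = 0.0107) and Spearman's rho = 0.404 (adjusted p = 0.0415), with r = 0.455 in cadmium mice and 0.582 in vehicle mice, and 0.543 without the 2 mice farthest from the median of Airn. Gnasas1 and Nesp had r = 0.583 (adjusted p = 0.00132) and rho = 0.633 (adjusted p = 0.000678), with 0.229 in cadmium mice and 0.856 in vehicle mice, and 0.664 without the 2 farthest mice. Kcnq1ot1 and Cdkn1c had r = 0.327 (adjusted p = 0.112) and rho = 0.376 (adjusted p = 0.0620), with −0.0172 in cadmium mice and 0.621 in vehicle mice, and 0.165 without the 2 farthest mice.

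A library measure moved with all of these levels. The mitochondrial share of coverage was 0.0127% to 0.0923% in cadmium mice (median 0.0673%) and 0.0128% to 0.119% in vehicle mice (median 0.0449%). It had r from 0.601 (Kcnq1ot1) to 0.852 (1A) with the 8 intermediate stretches, and all 8 passed. All 8 also passed within vehicle mice, whereas within cadmium mice those of Airn, Kcnq1ot1, Snurf, Igf2r and Nesp did not. For exon 1A, rho was 0.842 (adjusted p of r = 8.12e-05, of rho = 9.29e-05), r was 0.785 in cadmium mice and 0.890 in vehicle mice, and r was 0.822 without the 2 mice of the most extreme share. For Airn, r was 0.682 (adjusted p = 0.000162) and rho 0.704 (adjusted p = 0.000130), with 0.682 in cadmium mice and 0.756 in vehicle mice, and 0.659 without the 2 extreme mice. For Kcnq1ot1, r was 0.601 (adjusted p = 0.00101) and rho 0.585 (adjusted p = 0.00188), but 0.262 in cadmium mice, 0.808 in vehicle mice and 0.425 without the 2 extreme mice. The Kcnq1 and Gs alpha promoters had r of 0.0230 and 0.139 with the same share, and neither passed. Both were almost unmethylated, at means of 0.343% and 0.508% over the mice, so they had little spread that could follow the share. Their low r therefore cannot show that the relation is particular to the intermediate stretches.

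The comparison list moved together with these loci. Its mean had r from 0.549 to 0.825 with the 8 intermediate stretches, all of which passed. With Kcnq1 and Gs alpha, r was −0.0153 and 0.262, and neither passed. Both lay near 0% with little spread to follow the list, so this contrast decides nothing about the other stretches. The part of whatever the mitochondrial share tracks in these levels was not tested.

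**Figure D5:**
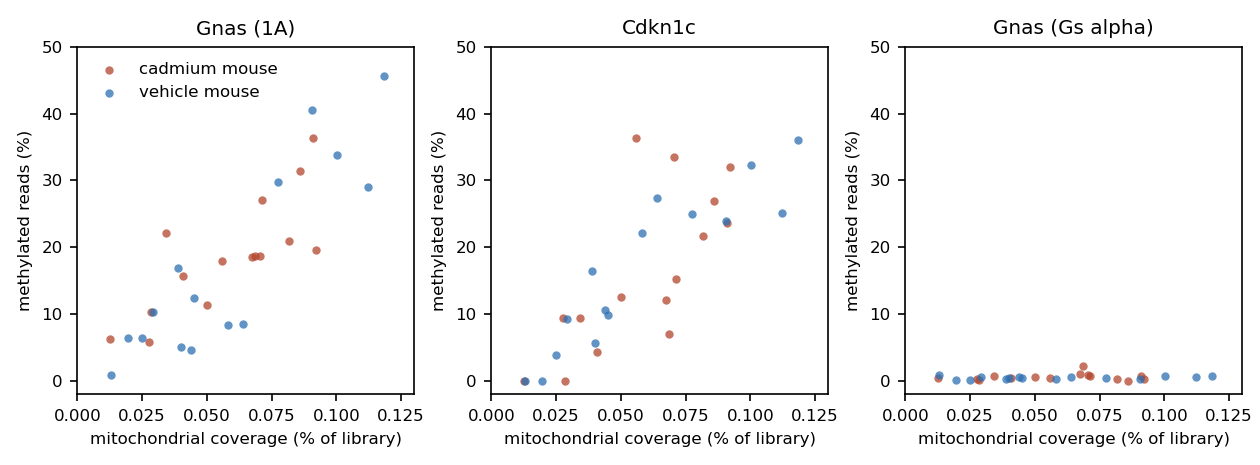
Percentage of methylated reads at Gnas exon 1A, Cdkn1c and Gs alpha (vertical axis) against the mitochondrial share of library coverage in percent (horizontal axis), with a point per mouse (15 cadmium, 15 vehicle). Levels climb with the share at 1A (r = 0.852) and Cdkn1c (r = 0.821) and stay near 0% at Gs alpha (r = 0.139).

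The other genes of the imprinted clusters showed no difference that passed the test. Of 25 neighbouring genes listed for the Airn, Kcnq1ot1 and Snrpn clusters, 13 had a measured gene end and 0 passed, against the background of 0% given above for gene ends at 1000 bp. None of the 13 had an unadjusted p under 0.05. In 9 the mean was higher in cadmium mice and in 4 lower, with a median difference of 0.32 points. In the Snrpn cluster, Magel2, a ubiquitin ligase regulator expressed from the paternal allele, averaged 17.3% ± 8.83 in cadmium mice and 16.7% ± 11.4 in vehicle mice. Mkrn3, a ring finger protein gene of the same cluster, averaged 12.6% ± 8.35 in cadmium and 12.7% ± 9.97 in vehicle mice. Their levels had r = 0.867 and 0.813 with the mitochondrial share over the 30 mice, the highest among the 13 measured genes. The rest were lower, among them Slc22a3 (0.623), Slc22a2 (0.471), Phlda2 (0.201) and Ube3a (−0.165, the lowest). These r are given as a description. Magel2, Mkrn3, Slc22a3 and Phlda2 are named for their roles after their values were seen.

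In the Airn cluster, the organic cation transporter gene Slc22a2 averaged 57.2% ± 13.6 in cadmium against 49.4% ± 17.7 in vehicle mice, which had the smallest p of the list (0.156, adjusted p = 0.930). Slc22a3 averaged 9.40% ± 5.10 in cadmium and 8.43% ± 5.69 in vehicle mice. In the Kcnq1ot1 cluster all 6 measured genes were under 10%, among them Phlda2, a growth-restraining placental gene, with 0.804% ± 1.01 in cadmium mice against 0.884% ± 1.13 in vehicle mice. Ube3a, the ubiquitin ligase of the Snrpn cluster, was the lowest at 0.360% ± 0.670 in cadmium and 0.470% ± 0.986 in vehicle mice.

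The gene ends whose level followed the Airn start most closely over the 30 mice were sought outside the member genes. They were Des (r = 0.798), which encodes desmin of muscle, Lyl1 (r = 0.775), a blood cell transcription factor, Mfsd2b (r = 0.769), Gm30241 (r = 0.765) and Eng (r = 0.765), a receptor of endothelial cells. They were taken from 4010 gene ends with an SD of 2 points or more, whose median r was 0.105 and of which 653 (16.3%) exceeded 0.5. The 5 averaged 15.5% to 25.9% over the mice and had r of 0.761 to 0.845 with the mitochondrial share. These values are descriptions, since the genes were picked by r.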

How the data were processed

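Per the labels, reduced representation bisulfite libraries of sperm from 15 cadmium and 15 vehicle mice were compared. The tables the authors deposited hold a read count and a methylated fraction for every CpG cytosine, strands apart. Bismark 0.22.3, methylKit 1.12.0, Trim Galore 0.5.0 and bcl2fastq, with GRCm38 and mm10 as builds, are listed in the submitters' processing notes without their roles. Fraction times count, rounded, gave the methylated reads, strands were summed, and CpGs with 10 or more reads in all 30 mice were kept. Depth per library was 53591172 to 94090975 summed cytosine reads.

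Members and gene lists were chosen with earlier results of these data known. The annotation (RefSeq, GRCm38.p6) gives gene ends without strand or exons, and RefSeq promoter sequences give strand and start for some genes. A CpG, cluster (3 or more CpGs, gaps up to 100 bp) or stretch (1000 bp either side, 3 or more CpGs) was tested by a logistic model with Pearson dispersion of at least 1 and an F test of treatment, adjusted by Benjamini-Hochberg over each whole table at 0.05. The code was tested on simulated reads. The planned 1000 bp held under 3 CpGs at the Airn, Kcnq1ot1 and Gnasas1 starts, so 2000 bp were used there. The 1A and Gs alpha starts were added after seeing the data, and named by their order in the gene from background knowledge, since the table pairs no product with a start. Contrasts and relations over mice were tested by two-sided permutation with 100000 resamples. Alternatives were 5 or 20 reads, 10 mice of each group, an upper coverage limit, no dispersion term, limma 3.58.1 without and with a replicate block or the mitochondrial share, single strands, leaving out 3 mice, other windows and gaps, and equal weight for CpGs. Named features were all members with Gnasas1 and Snurf, the clusters in their stretches, the highest and lowest cluster of each gene, the 3 CpGs and 3 clusters with the smallest p, the extremes and 3 smallest p of the neighbouring genes, and the 5 gene ends most like Airn among those with an SD of at least 2 points. A gene that this rule takes is not reported here. Python 3.11.15, SciPy 1.17.1 and R 4.3.3 were used. No pair among 435 pairs of libraries looked like a repeat of the same library (mean chi-square per CpG at least 10.3).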

Additional observations from a re-analysis of the deposited data

How the results depend on the processing

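There were 19 settings in all, at most 15 of them for any stretch. Counted as unchanged in direction and side of the threshold were 112 recomputed stretch differences. For the 11 at Kcnq1ot1, which had no stretch test, this meant only a shift smaller than the larger group SD. With equal CpG weights the adjusted p of the read-weighted stretch was carried over, so only the direction could change. Many differences moved in size without the 3 vehicle mice of highest mitochondrial share, which takes high levels from that group only. Airn was then 4.75 points (0.93 with them), Kcnq1ot1 8.54 (1.21), Gnasas1 12.7 (6.80), Igf2r 2.97 (0.28), Snurf 4.14 (1.36) and exon 1A 6.19 (1.47). The sign turned at Igf2r with 10 mice of each group (−0.0196 points, also with 2000 bp), plus reads (−2.41), minus reads (−0.99) and equal CpG weights (−0.25). It turned at Cdkn1c with 10 mice (0.0764), with 2000 bp as well (0.89), with 2000 bp alone (1.53), minus reads (1.89) and without those 3 mice (3.43), which also turned Nesp (2.98). It turned at Snurf with 10 mice (−1.32, at either width) and minus reads (−0.25), at Airn with minus reads (−5.16) and at Gs alpha with minus reads (−0.18). These differences were never called, and the cause was not tested. Without the dispersion term, which treats reads as independent molecules, Gnasas1 (6.80), Kcnq1 (−0.47), Snurf (1.36), exon 1A (1.47) and Gs alpha (0.14) passed, with 187942 CpGs, 8073 gene ends and 24094 clusters called, 117 CpGs and 18 clusters of them members. Called CpGs were 7 in the model used, 2 at 20 reads, 0 with minus reads and 0 by limma, with the replicate block and with the mitochondrial share. Called gene ends were 0, but 14 with plus and 5 with minus reads. Called clusters were 0, but 1 with 10 mice, 11 with plus reads, 27 with minus reads and 2 with gaps up to 300 bp. Gnasas1 minus Nesp missed the threshold with equal CpG weights (4.76 points, adjusted p = 0.0548), and 21 other contrast values kept their call.

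Within the 15 cadmium mice alone the relation with the mitochondrial share did not pass for Airn (0.682), Kcnq1ot1 (0.262), Snurf (0.4996), Igf2r (0.552) and Nesp (0.331). Igf2r with Airn (0.455) and Nesp with Gnasas1 (0.229) did not pass there either. All of these passed within the vehicle mice, which were also 15. Whether the groups differ in these relations was not tested. Cdkn1c with Kcnq1ot1 was −0.0172 in cadmium mice, and it passed in vehicle mice (0.621) and at 20 reads (0.398). Same-numbered mice had correlations of −0.269 to 0.694, with a mean of 0.113, against −0.00668 for mice of different numbers. The correlation was over 0.1 in 6 of 15 pairs, and 2 of 15 matched their own number best. Whether the replicate numbers pair the mice was not tested. With the replicate block in limma the Airn difference was 0.93 points (adjusted p = 1), the Gnasas1 difference 6.80 (adjusted p = 0.997), and no member was called. The Kcnq1ot1 start rests on the fewest CpGs of the stretches, 2, each with a median of 86.5 reads (173 summed).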
